A study of Mus musculus with 24 samples.

Results

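Total RNA and newly made RNA were compared within mouse pachytene spermatocytes, the germ cells of mid-meiosis. The comparison used 8 of the 24 libraries of the series, 4 of total RNA and 4 of nascent RNA, chosen by their labelled cell type and assay. All came from testes of wild-type NMRI mice, in which spermatogenesis had been synchronised with WIN18,446, an inhibitor of retinoic acid synthesis, and retinoic acid. Mice received 2 mg of 5-ethynyl uridine (EU) at 24 dpp (days after birth), were killed 3 h later, and cells were sorted by ploidy. Total libraries 1 and 3 came from the animal IND2 and libraries 2 and 4 from IND4. Nascent libraries 1 and 3 came from IND6 and libraries 2 and 4 from IND8. The labels thus give the assays different animals, and do not say whether an animal of total RNA also supplied nascent RNA. ERCC spike-ins were added to the extracted RNA. Ribosomal RNA was depleted from total libraries and not from nascent ones, so assay and depletion cannot be told apart.

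In pachytene, homologous chromosomes are fully paired and recombination is completed, while the X and Y chromosomes are transcriptionally silenced in the sex body. Autosomal transcription is high, and many mRNAs are stored for use after meiosis. EU is a uridine analogue that RNA polymerases build into new transcripts, which are then captured by click chemistry. Nascent RNA here means RNA made during the labelling time. Total RNA also holds transcripts made earlier and kept. Depletion and capture also differ between the assays.

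The values are FPKM, which the authors computed per gene. Spike-in rows were set aside here and each library was rescaled to a sum of 1e6, so every level below is a rescaled FPKM. Differences are given as total minus nascent on a log2(value + 1) scale with their standard errors, which understates differences of low genes. Libraries of the same animal were averaged, leaving 2 animals against 2, and a gene was called at a Benjamini-Hochberg adjusted p under 0.05 from limma over all 14109 genes tested. Of the other rows, 3640 reached the level minimum in total RNA alone and 550 in nascent RNA alone.

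Genes of pachytene cells had the highest sums among the marker lists. The summed level of 31 genes of pachytene cells was 17856 to 19425 in total RNA and 3847 to 5796 in nascent RNA. Much of it lay in Hist1h1t and Hspa2, at 4104 to 6448 and 3992 to 4859 in total RNA. In nascent RNA these were 286 to 686 and 169 to 1433. Sums over 20 spermatid genes were 1415 to 1582 in total RNA and 435 to 511 in nascent RNA. Of these sums, Dnajb3 held 855 to 1053 and Actl7b 247 to 263 in total RNA. In nascent RNA they held 192 to 239 and 59.5 to 83.6. The spermatid genes Tnp1, Smcp, Spem1 and Catsper1 were at 0 in every library. Sums over 16 markers of spermatogonia were 136 to 185 and 125 to 177, of which Id4 alone was 61.1 to 165. Markers of Sertoli, Leydig, peritubular or vascular, and blood cells summed to at most 32.1 in any list and library. The Sertoli genes Fshr, Rhox5 and Trf were at 0 in every library. Fewer cells of a type and less RNA per cell cannot be told apart in such bulk samples. Rnf7 and Cdc42ep4, which were given as marker genes for the comparison, do not mark pachytene cells by their total RNA, as their values below show.

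Library 3 stood apart in both assays. Its summed level of 47 X-linked housekeeping genes was 132 in total RNA, against 9.68 to 13.5 in the other total libraries, and 296 in nascent RNA, against 23.2 to 30.0. Dmrt1, a regulator of spermatogonia, was 15.0 in total library 3 against 1.15 to 1.67 in the others, and Piwil1, a pachytene piRNA-binding protein, was 292 against 534 to 563. In nascent RNA Piwil1 was 68.1 in library 3 and 351 to 372 in the others. The part of library 3 in the counts was measured by leaving it out of both assays: 3195 of 13234 genes (24.1%) were then higher in total RNA and 136 (1.03%) in nascent RNA. Depth differed between assays as well, and the reads implied by the step between low FPKM values, in units of 1e6, were 11.8 to 15.8 per total library and 5.10 to 9.94 per nascent library. A single read over 1500 bases was worth 0.146 to 0.213 in the first assay and 0.302 to 0.460 in the second.

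The makeup of the libraries differed most in a few short or ribosomal rows. A merged row of Rn45s, the 45S ribosomal precursor, and Gm26917, together with Mir6236 and 4 short predicted genes, held 9.51% ± 0.813 (SD, n = 2 animals) of the summed value in total RNA and 64.3% ± 3.23 in nascent RNA. The exact two-sided permutation p was 0.333, the smallest that 2 animals against 2 allow, and the libraries did not overlap. Gm23935 alone held 45037 to 97130 of the 1e6 in total libraries and 348304 to 429293 in nascent libraries. Its annotated 57 bases are shown because copies elsewhere have the same letters, so reads could be divided between rows. Capitals mark the base that differs from Gm23935, and transcripts are from GENCODE M21 on mm10.
Gm23935 (chr16:11144125-11144181, plus strand): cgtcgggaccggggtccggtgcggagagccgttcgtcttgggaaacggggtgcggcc
Gm24270 (chr9:56223715-56223771, minus strand): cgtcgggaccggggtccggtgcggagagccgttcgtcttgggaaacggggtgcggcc
Gm24187 (chr13:9834469-9834525, minus strand): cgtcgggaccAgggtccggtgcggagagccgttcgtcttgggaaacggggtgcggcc
Gm24270 matched Gm23935 at every base, and Gm24187 carried G11A, counted from 1 at the 5′ end of Gm23935. The identical Gm24270 was 91.8 to 253 in total libraries and 29025 to 36457 in nascent libraries. Levels within this family are therefore uncertain row by row, although all 3 were higher in every nascent library than in any total library. Gm24245, a further identical copy on chromosome 4, lay between 34.9 and 76.7 in total RNA and between 63.8 and 223 in nascent RNA, which overlap.

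**Figure D1:**
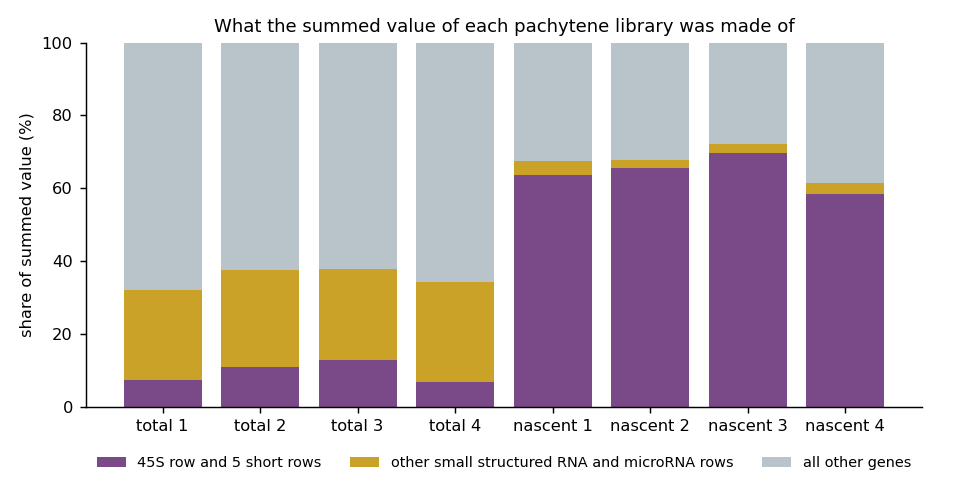
Share of the summed rescaled FPKM (y axis, %, spike-ins excluded) in each of the 8 pachytene libraries (x axis), split into the Rn45s row with 5 short rows, the other small structured RNA and microRNA rows, and all other genes. The first share is 6.88% to 12.9% in total libraries and 58.4% to 69.7% in nascent libraries.

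The share taken by these rows leaves less of the sum for other genes in nascent RNA. The median gene differed by 0.67 in favour of total RNA on this scale and by -0.13 when ribosomal, small structured and microRNA rows were left out of the sum. Differences below carry this shift of 0.67 unless given as centred. With it in place, 3695 of 14109 genes (26.2%) were higher in total RNA and 166 (1.18%) in nascent RNA, so 95.7% of calls were toward total RNA. After centring each library on its median over the tested genes, 661 genes (4.68%) were higher in total RNA and 238 (1.69%) in nascent RNA, or 73.5% toward total RNA. Without nascent library 1 the counts were 1883 and 97 on the first scale and 16 and 37 after centring. Centred counts higher in total RNA were also lower without nascent library 4 (83), total library 1 (315) and total library 4 (380). All 661 of these genes and 151 of these 238 were also called before centring in the same direction. Levels of the 4 total and 4 nascent libraries did not overlap for 5607 genes (39.7%). Deviations of same-numbered libraries of the assays from their group means correlated weakly, at 0.127 to 0.315. With the library number as a replicate block, 6191 genes (43.9%) were higher in total RNA and 252 (1.79%) in nascent RNA. Of these, 3607 and 107 were called without the block. This fit takes single libraries as units, so libraries of the same animal count as separate replicates. The 8 libraries as replicates without a block gave 5330 and 177, and animal means paired as a block gave 5190 and 279. Gene and group values below with the replicate block are from the fit on library numbers.

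Genes relatively higher in nascent RNA were few, and Cdc42ep4, a binding partner of the GTPase Cdc42, was among the largest. The 12 largest called differences in each direction were taken without predicted and merged genes, pseudogenes, microRNAs and rows named as snoRNAs or 5S copies. Cdc42ep4 (chr11:113726850-113751881, minus strand) was 10.2, 11.3, 12.5 and 12.6 in total libraries 1 to 4, and 286, 97.5, 125 and 220 in nascent libraries 1 to 4. Every nascent library lay far above every total library, and the mean was 15.7-fold higher in nascent RNA. The difference was -3.73 ± 0.26 (adjusted p = 0.00954, limma) and -4.44 after centring (adjusted p = 0.0153). Rnf7, the RING subunit of cullin ubiquitin ligases, showed a wider gap. Rnf7 (chr9:96470937-96478675, minus strand) was 0.716, 0.881, 1.06 and 0.763 in total RNA and 84.5, 93.1, 86.0 and 97.3 in nascent RNA. With only 1 total library at the minimum of 1, Rnf7 was left out of the main test. When the minimum was counted over all 12 libraries of each assay, a choice made after seeing the data, its difference was -5.62 (adjusted p = 0.0315, limma).

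Srrm2, Nxt1 and Pcid2, among the 12 largest toward nascent RNA, act in RNA processing or export. Srrm2, a scaffold of nuclear speckles and the spliceosome (chr17:23790532-23824741, plus strand), was 9.21, 9.07, 9.45 and 8.84 in total RNA and 278, 271, 278 and 243 in nascent RNA. Its libraries agreed closely within each assay, with a difference of -4.72 ± 0.23 (adjusted p = 0.00919, limma). Nxt1, the partner of the mRNA export receptor, was 15.3, 15.1, 17.8 and 18.2 in total RNA and 215, 182, 180 and 273 in nascent RNA. The groups did not overlap, and the difference was -3.58 ± 0.23 (adjusted p = 0.00954, limma). Pcid2, a component of an export complex at the nuclear pore, ranged from 1.90 to 12.4 in total RNA and from 25.8 to 93.3 in nascent RNA.

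Among the others of the 12, Rab11fip2, an effector of recycling endosomes, was 18.6, 3.17, 0.261 and 1.41 in total RNA and 124, 164, 89.6 and 165 in nascent RNA. It had the most negative difference of the 12 at -5.06 ± 0.37 (adjusted p = 0.00954, limma). Usp2, a deubiquitinase, lay at 11.4 to 34.0 in total and 230 to 435 in nascent RNA, and Icmt, which methylates prenylated proteins, at 6.17 to 18.7 and 108 to 191. Tmem30a, a subunit of phospholipid flippases, lay at 2.27 to 5.55 and 44.1 to 63.6. Zcchc2, Mfap3 and Mcrip1 differed by -4.96, -3.29 and -3.25. Each of these groups was free of overlap, as the rule for naming genes required.

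Some calls rest on levels that were unlike between libraries of the same animal. Fam107b was 2.65, 165, 77.5 and 2.46 in total RNA and 368, 284, 257 and 445 in nascent RNA, for a difference of -4.04 ± 0.28 (adjusted p = 0.00954, limma). Its low and high total libraries fell in both animals, so the animal means hid the spread, and with the replicate block its adjusted p was 0.0400. Among the 166 genes higher in nascent RNA, 92 (55.4%) differed at least 4-fold between libraries of the same animal and assay, against 2539 of the 14109 tested (18.0%) and 434 of the 3695 higher in total RNA (11.7%), with levels under 1 taken as 1. The part of this spread in the calls was not tested.

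**Figure D2:**
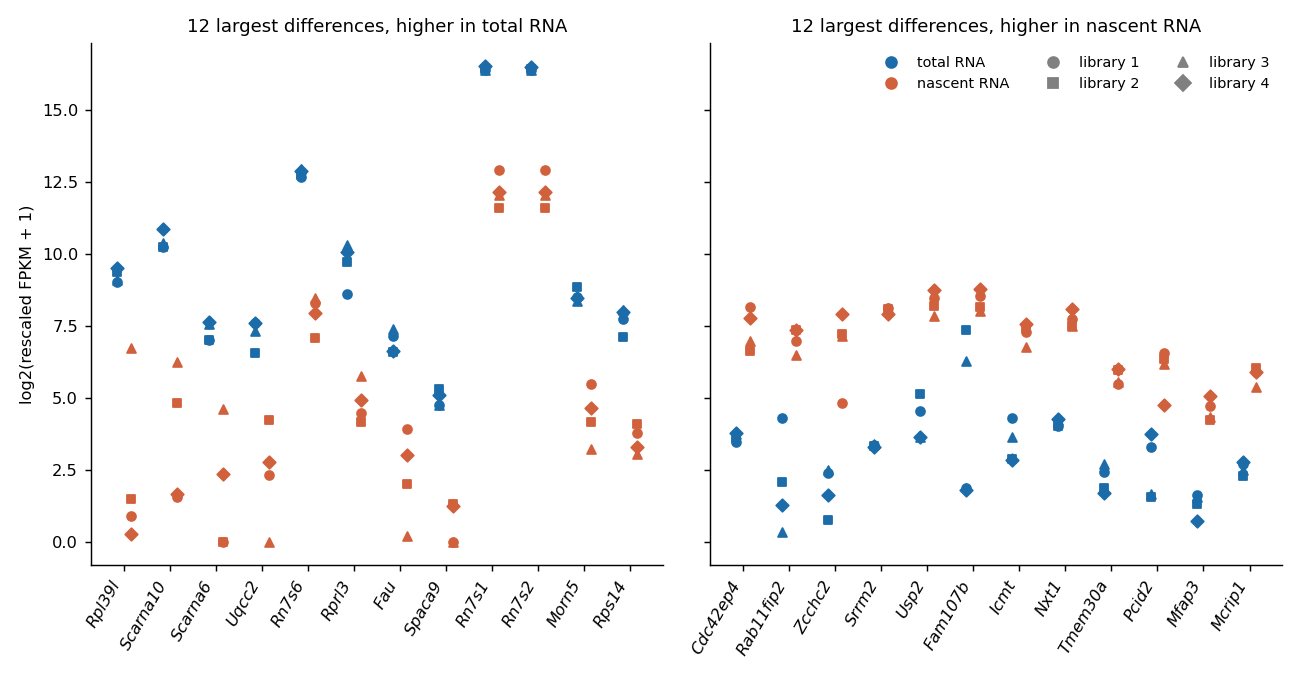
Level of each library, as log2(rescaled FPKM + 1) on the y axis, for the 12 genes with the largest called differences toward total RNA (left) and toward nascent RNA (right). Blue marks total RNA, orange nascent RNA, and the symbol gives the library number. Nascent library 3 lies far above the other nascent libraries for Rpl39l, and the total libraries of Fam107b fall into separate pairs.

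Among the genes that met the naming rule, Rpl39l, Scarna10 and Scarna6 had the largest differences toward total RNA. Rpl39l, the autosomal testis paralogue of the X-linked ribosomal protein gene Rpl39 (chr16:10170226-10174911, plus strand), was 525, 657, 542 and 734 in total RNA and 0.864, 1.80, 106 and 0.211 in nascent RNA. Only nascent library 3 held it at more than trace level, and the difference was 6.90 ± 0.96 (adjusted p = 0.0120, limma). Without library 3 it no longer reached the level minimum in nascent RNA. Scarna10, a guide RNA of the Cajal body, was 1227, 1215, 1344 and 1856 in total RNA and 1.93, 27.4, 74.9 and 2.14 in nascent RNA. The nascent libraries were spread widely but lay below every total library, with a difference of 6.87 ± 0.30 (adjusted p = 0.00676, limma). Scarna6, of the same class, differed by 5.57 ± 0.43 and was at 0 in nascent libraries 1 and 2.

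The list of 12 toward total RNA also held Uqcc2, Fau, Spaca9, Morn5 and Rps14. Uqcc2, an assembly factor of respiratory complex III, was 93.7 to 196 in total RNA and 0 to 17.8 in nascent RNA, with a difference of 4.95 ± 0.78 (adjusted p = 0.0148, limma). Fau, which encodes a ribosomal protein fused to a ubiquitin-like protein, was 96.5 to 168 against 0.139 to 14.2. Spaca9, a sperm acrosome-associated protein, was 25.9 to 38.3 against 0 to 1.49. Morn5, a MORN-repeat protein of the testis, was 367, 459, 329 and 357 in total RNA and 43.3, 17.0, 8.25 and 24.1 in nascent RNA, a difference of 4.18 ± 0.23 (adjusted p = 0.00919, limma). Rps14, a protein of the small ribosomal subunit, differed by 4.17 ± 0.27. All 24 of these genes stayed called in the same direction after centring, and all but Rpl39l and Scarna6 without library 3 of both assays.

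Small structured RNAs had the largest group median. Of 19 tested, 14 were higher in total RNA and none in nascent RNA (73.7%, against 26.2% of all genes), with a median difference of 2.90 against 0.67. Rn7s1 and Rn7s2, 7SL RNAs of the signal recognition particle, differed by 4.25 each. Their annotated 300 bases are identical, so reads could not be told apart between them. Rn7sk, the 7SK RNA that holds the elongation kinase P-TEFb inactive (chr9:78175303-78175633, minus strand), was 23007, 26182, 23133 and 24762 in total RNA and 5303, 3174, 4031 and 4709 in nascent RNA. Total libraries were all several-fold higher, with a difference of 2.52 ± 0.17 (adjusted p = 0.00954, limma). The Rn45s row went the other way at -2.18 ± 0.14 (adjusted p = 0.00954, limma). Its levels were 16965 to 31962 in total RNA, which was depleted of ribosomal RNA, and 90097 to 121854 in nascent RNA, which was not.

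Ribosomal protein genes, respiratory chain genes and proteasome genes were higher in total RNA as groups of many members. For ribosomal proteins, 57 of 68 tested (83.8%, against 26.2% of all genes) were higher in total RNA and none in nascent RNA. Their median was 2.30. Rpl37 was 85.4, 115, 82.1 and 82.9 in total RNA and 4.80, 7.41, 7.06 and 3.87 in nascent RNA, a difference of 3.79 ± 0.25 (adjusted p = 0.00954, limma). Of 65 respiratory chain genes, 43 (66.2%) were higher in total RNA, with a median of 1.86. Ndufa6, a subunit of complex I, was 163, 187, 179 and 199 against 11.7, 24.9, 16.0 and 19.1, without overlap. Of 32 proteasome subunits, 24 (75.0%) were higher in total RNA, with a median of 2.05. All 32 differences were positive, as were 11623 of the 14109 over all genes on this scale. Psmb1 of the 20S core was 138, 140, 127 and 138 against 18.2, 13.7, 14.6 and 13.5, a difference of 3.11 ± 0.24 (adjusted p = 0.00954, limma). After centring, 25 of 68, 22 of 65 and 9 of 32 members of these groups remained higher in total RNA, against 4.68% of all genes. In the respiratory chain 1 gene was then higher in nascent RNA.

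Replication-dependent histone mRNAs end in a stem-loop in place of a poly(A) tail. Of 55 tested, 41 (74.5%, against 26.2% of all genes) were higher in total RNA, with a median of 1.78. After centring 13 were, against 4.68% of all genes. Without library 3 of both assays the count was 25, with a median of 1.84, where 24.1% of all genes were higher in total RNA. Hist1h1t, the testis-specific linker histone H1t of pachytene cells (chr13:23695814-23696725, plus strand), was 4778, 6247, 4104 and 6448 in total RNA and 419, 686, 286 and 609 in nascent RNA. The groups were far apart, with a difference of 3.48 ± 0.37 (adjusted p = 0.00954, limma). Hist1h4h, Hist1h4a and Hist1h4c, which encode the same protein and may share reads, differed by 3.55, 3.30 and 3.25. A stem-loop is shown for 3 called members, with its 16 bases in capitals, as GENCODE M21 transcripts on mm10 have it. It starts at base 416 of 469 in Hist1h2bp, 628 of 1020 in Hist2h3c2 and 488 of 2146 in Hist3h2a. The annotated transcripts of Hist2h3c2 and Hist3h2a thus run on well past it.
Hist1h2bp (chr13:21787461-21789213, plus strand): cacaaaGGCTCTTTTCAGAGCCacccac
Hist2h3c2 (chr3:96238108-96239127, minus strand): cacaaaGGCTCTTTTCAGAGCCaccaca
Hist3h2a (chr11:58954685-58956830, plus strand): accaaaGGCTCTTTTCAGAGCCacccac
These exact letters, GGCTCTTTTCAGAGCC, searched on the transcript strand, occurred in 23 of 66 annotated histone genes of the list and in 29 of all 55341 genes with transcripts (0.0524%). The letters were picked as the stem-loop that more genes of this list share than any other. Their contrast with all genes was therefore favoured by that choice and is not a test. The differences of the 3 genes were 3.09, 2.47 and 2.55. Among tested histone genes, 12 of 19 with the letters and 29 of 36 without them were higher in total RNA, with medians of 1.63 and 1.83. Other forms of the stem-loop were not counted, so this does not divide genes with a stem-loop from genes without one.

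Axoneme genes and translation factors lay between these groups and the average gene, and spermatid genes lay at the average. Of 36 axoneme and flagellum genes, 21 (58.3%, against 26.2% of all genes) were higher in total RNA, with a median of 1.21. All 36 differences were positive, as were 11623 of the 14109 over all genes. Spag6l, a protein of the central pair of the axoneme, was 311, 234, 295 and 245 in total RNA and 60.8, 50.5, 47.6 and 62.4 in nascent RNA. It did not overlap between assays and differed by 2.27 ± 0.24 (adjusted p = 0.00954, limma). Of 35 translation factors, 20 (57.1%) were higher in total RNA, with a median of 1.34. Eif3e, a subunit of an initiation factor, differed by 4.02 ± 0.44, and Eef1a1, the elongation factor that delivers tRNA, by 3.35 ± 0.26. Of 12 spermatid genes, 3 (25.0%) were higher in total RNA, with a median of 0.70: Dnajb3, Actl7b and Prm1. Prm1, a protamine that packs sperm DNA, was 8.00 to 10.7 in total RNA and 10.6, 0, 0 and 11.6 in nascent RNA, which overlap. Its adjusted p was 0.480 without library 3 and 0.147 with the replicate block (limma).

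Pachytene genes had a median close to that of all genes. Of 27 tested, 11 (40.7%, against 26.2% of all genes) were higher in total RNA and 1 in nascent RNA, with a median of 0.90. After centring 1 was called in each direction, against 4.68% and 1.69% of all genes higher in total and in nascent RNA. Hspa2, a chaperone needed to finish meiosis (chr12:76404176-76406938, plus strand), was 4520, 4525, 3992 and 4859 in total RNA and 1279, 1433, 169 and 1355 in nascent RNA. Nascent library 3 was low, and the difference was 2.47 ± 0.53 with it and 1.79 without library 3 (adjusted p = 0.0285 and 0.0130, limma). Pgk2, the germ-cell glycolytic kinase, was 348, 264, 445 and 238 against 74.5, 31.8, 103 and 73.9, with a difference of 2.25 ± 0.39 (adjusted p = 0.0180, limma). Ldhc, the germ-cell lactate dehydrogenase, differed by 2.19, but its total libraries ran from 140 to 1939 and its adjusted p was 0.114 without library 3. Piwil1 and Ccna1, the meiotic cyclin A1, had differences of 0.98 ± 0.46 and 1.11 ± 0.58 (adjusted p = 0.173 and 0.211, limma), and were called with the replicate block (adjusted p = 0.0413 and 0.0232). Zpbp2, a sperm protein that binds the zona pellucida, was the member higher in nascent RNA at -1.32, with total levels from 3.55 to 124 that overlapped nascent levels of 65.2 to 87.2. Its adjusted p was 0.209 with the replicate block and 0.893 without library 3 (limma). It was named because its count was 1.

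Meiotic and piRNA genes were mixed. Of 26 recombination and chromosome axis genes, 6 (23.1%, against 26.2% of all genes) were higher in total RNA and 1 in nascent RNA. Their median was 0.34. Stag3, the meiotic cohesin subunit, was 168, 150, 148 and 135 against 26.7, 22.2, 32.7 and 32.6, a difference of 2.37 ± 0.23 (adjusted p = 0.00954, limma). Hormad1, an axis protein removed at synapsis, was 3.44, 3.78, 14.5 and 3.68 in total RNA and 23.9, 35.0, 44.2 and 25.1 in nascent RNA. It was the member higher in nascent RNA, at -2.35 ± 0.36 (adjusted p = 0.0141, limma). Of 23 piRNA pathway genes, 4 (17.4%) were higher in total RNA, with a median of 0.34. With the replicate block 9 were (39.1%, against 43.9% of all genes), and after centring 1. Mael, a nuage protein of transposon silencing, was 827, 782, 870 and 908 against 157, 147, 133 and 49.1, a difference of 2.92 ± 0.31 (adjusted p = 0.00954, limma). Of 25 division regulators, 10 (40.0%) were higher in total RNA, 18 with the replicate block (72.0%, against 43.9%) and 1 after centring (against 4.68% of all genes). Ccnb2, cyclin B2, differed by 2.51 ± 0.35 and Pkmyt1, which inhibits its kinase, by 1.77 ± 0.40.

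Factors of RNA synthesis and turnover had group medians near or below that of all genes. Medians of the polymerase II and elongation, decay, stabilising and splicing groups were 0.69, 0.51, 0.29 and 0.42, against 0.67 for all genes. Polr2a, the largest subunit of RNA polymerase II (chr11:69733997-69758637, minus strand), was 118, 95.1, 98.3 and 98.2 in total RNA and 196, 198, 199 and 222 in nascent RNA. All nascent libraries were higher, by 1.99-fold in the means, with a difference of -0.99 ± 0.22 (adjusted p = 0.0305, limma). In deposited FPKM without rescaling it was -0.79 and not called (adjusted p = 0.185, limma). Of 49 polymerase II and elongation genes, 14 (28.6%) were higher in total RNA and 5 in nascent RNA. Over all genes tested these shares were 26.2% and 1.18%. Of the 14 none was called after centring, while 22 members were with the replicate block (44.9%, against 43.9% of all genes). Polr2a was among these 5, as were Tbp, the TATA-binding protein, Med1, a Mediator subunit, and Cdk9, the kinase of P-TEFb. Cdk9 was 12.6 to 18.3 in total and 30.0 to 31.9 in nascent RNA, and it was named because the count was 5. Med1 had 1 total library at 104 and 3 at 2.34 to 5.31, and its adjusted p was 0.0555 with the replicate block. Without library 3 of both assays the adjusted p was 0.0638 for Tbp, 0.0518 for Med1 and 0.0680 for Cdk9 (limma).

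Of 50 mRNA decay factors, 10 (20.0%, against 26.2% of all genes) were higher in total RNA and 2 in nascent RNA. Their median was 0.51. The count higher in total RNA was 23 with the replicate block (46.0%, against 43.9% of all genes) and 1 after centring. Exosc5, a subunit of the RNA exosome, differed by 2.84 ± 0.33. Cnot6, a deadenylase, and Dcp1a, a decapping factor, were the 2 higher in nascent RNA, at -1.61 and -1.11, and were named because they were 2. Neither was called without library 3 of both assays (adjusted p = 0.267 and 0.177), nor was Cnot6 with the replicate block (adjusted p = 0.0855, limma). Of 43 stabilising and storage factors, 9 (20.9%, against 26.2% of all genes) were higher in total RNA, 1 after centring, and 1 in nascent RNA. Pabpc1, which coats poly(A) tails, was 1508, 1139, 1032 and 1020 against 246, 384, 190 and 273, a difference of 2.13 ± 0.27 (adjusted p = 0.0108, limma). Ybx1, an mRNA-packaging protein, was 6.60, 153, 230 and 35.7 in total RNA and 158, 322, 244 and 198 in nascent RNA, so the assays overlapped. It was called at -2.0, with an adjusted p of 0.0641 with the replicate block and 0.110 without library 3 (limma). Of 48 splicing factors, 2 (4.17%, against 26.2% of all genes) were higher in total RNA, Hnrnpu and Hnrnpf. None was after centring, and 11 were with the replicate block (22.9%, against 43.9% of all genes). Srrm2 was the 1 higher in nascent RNA, where the replicate block gave 3.

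The remaining groups had at most 22 tested members, and 26.2% of all genes were higher in total RNA. Of 9 immediate-early genes tested, 3 (33.3%) were higher in total RNA, and Ier5 was the largest at 2.35 ± 0.36. The immediate-early count was 1 without library 3 and 0 after centring. Of 18 nuclear and host long noncoding RNAs, 7 (38.9%) were higher in total RNA, among them Gas5 at 2.0 ± 0.32, and Malat1, a nuclear speckle RNA, was 0.92 ± 0.31 (adjusted p = 0.0852, limma), and was called with the replicate block (adjusted p = 0.0137) and without library 3 (adjusted p = 0.0467). After centring none of the 18 was called. Of 22 sex chromosome silencing and checkpoint factors, 5 (22.7%) were higher in total RNA, 1 after centring, and 10 with the replicate block (45.5%, against 43.9% of all genes). H2afx, the histone variant phosphorylated on the silenced sex chromosomes, was 757, 1261, 701 and 1251 against 174, 289, 159 and 295. Only 3 of 47 X-linked housekeeping genes reached the level minimum in both assays, and none was called. Hprt, a purine salvage enzyme of this group, was 0, 0.616, 10.5 and 0 in total RNA and 1.02, 0.672, 16.6 and 2.40 in nascent RNA, high in library 3 of both. Of the Sertoli markers 5 were tested and Amh was higher in total RNA, and of 6 spermatogonia, 2 Leydig, 2 peritubular or vascular and 1 blood markers tested none was called. With the replicate block the Leydig marker Star was higher in total RNA (0.80, adjusted p = 0.0201, limma), and after centring Amh was not called (adjusted p = 0.322).

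**Figure D3:**
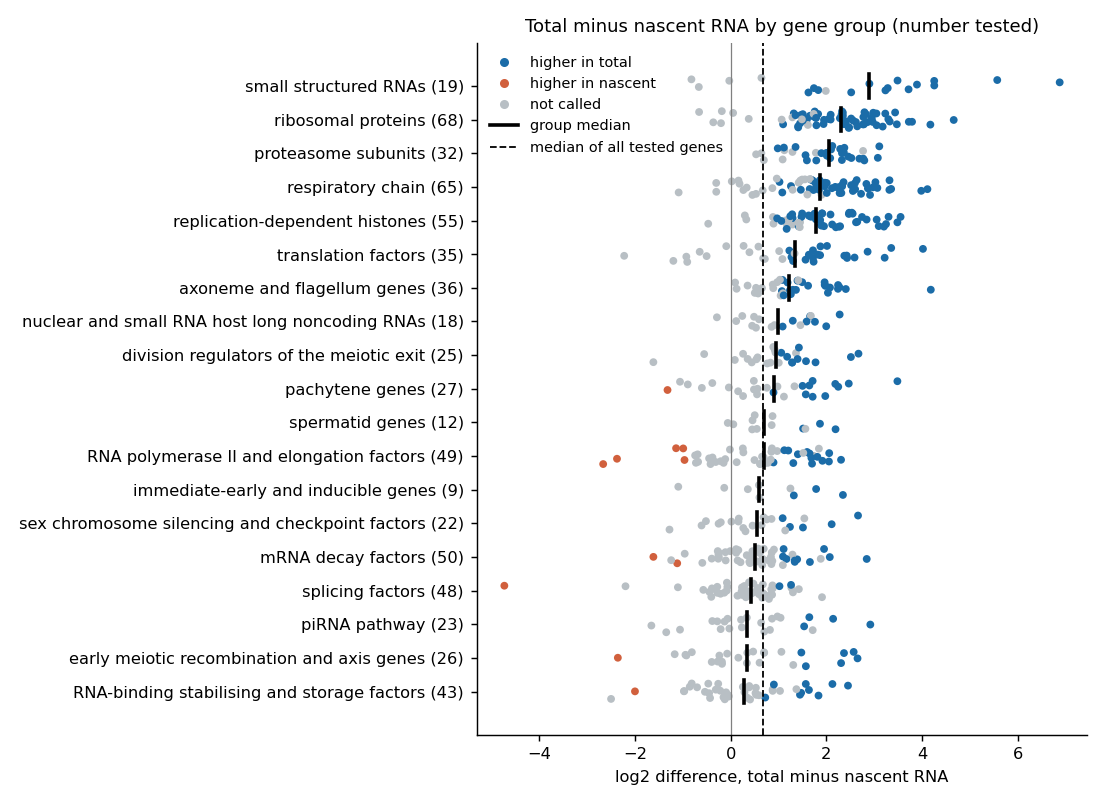
Log2 difference of total minus nascent RNA (x axis) for every tested member of 19 gene groups (y axis, number tested in brackets), with the group medians as black bars and the median of all tested genes, 0.67, as a dashed line. Small structured RNAs, ribosomal proteins, proteasome subunits, respiratory chain genes and histones lie furthest to the right.

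The direction of a group's median depended on the scaling for most groups near the average gene. When ribosomal, small structured and microRNA rows were left out of the sum, the median of all tested genes was -0.13 and that of pachytene genes was -0.03. Medians of the spermatid, recombination and axis, piRNA, immediate-early, polymerase II, decay, stabilising, splicing and checkpoint groups were then -0.07 to -0.63. Ribosomal proteins, respiratory chain, proteasome, histone, small structured RNA, translation and axoneme groups kept positive medians, from 0.26 to 1.68. Division regulators and nuclear and host long noncoding RNAs, nearer the average gene, also stayed positive, at 0.08 and 0.18.

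The difference also followed transcript length, taken for each gene from the annotated transcript with the longest coding sequence. Among 9599 protein-coding genes tested, the median difference was 1.15 in the eighth with the shortest transcripts, of 99 to 1265 bases, and 0.21 in the eighth with the longest, of 5772 to 26901 bases. The share higher in total RNA fell from 42.9% to 10.6% across these bins, and the share higher in nascent RNA was 1.17% in the shortest and 2.33% in the longest. The median log2 level in total RNA was near flat, at 4.09 and 4.02 in these bins, and that in nascent RNA was 3.01 and 3.84. Spearman's rho of the difference with transcript length was -0.329 across genes, with 3′ UTR length -0.289, with coding length -0.205, and with exon number -0.107. Genes are not independent replicates, and all points share the same 8 libraries. Groups of short transcripts, such as ribosomal proteins, are part of this relation. Whether library preparation for short transcripts takes part in it was not tested.

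**Figure D4:**
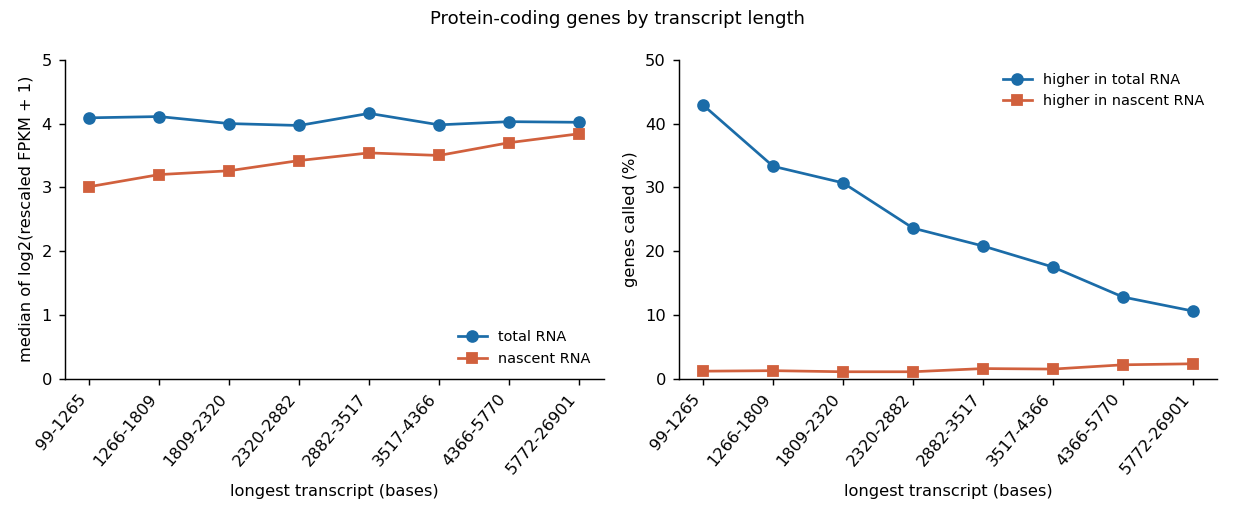
Protein-coding genes in 8 bins of the length of the annotated transcript with the longest coding sequence (x axis, bases, there labelled longest transcript). Left, the median log2(rescaled FPKM + 1) in total and nascent RNA, and right, the percentage of genes called higher in each assay. The nascent level rises from 3.01 to 3.84 and the share higher in total RNA falls from 42.9% to 10.6%.

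The pachytene difference was then set against that of the other stages, leptotene spermatocytes, which are in early meiosis, and spermatogonia, the mitotic germ cells, sorted from mice treated in the same way. Leptotene and pachytene share 1 animal in each assay. The median gene differed by 0.67 in pachytene, 0.28 in leptotene and 0.32 in spermatogonia. Tested as an interaction in limma, the difference was lower in pachytene than in leptotene for Cdc42ep4 (-5.36 ± 0.74, adjusted p = 0.0444) and Rab11fip2 (-4.62 ± 0.63, adjusted p = 0.0444). These 2 are 0.0142% of the genes tested. It was higher for 1 gene (0.00709%), Rundc3b (3.90 ± 0.48, adjusted p = 0.0388), which was named because it was the only one. Rundc3b was 9.07 to 20.1 in pachytene total and 4.81 to 41.5 in pachytene nascent libraries, while leptotene libraries held 4.89 to 21.9 of it as total RNA and 65.6 to 175 as nascent RNA. Against spermatogonia limma called no gene, where 1078 were higher and 180 lower at an unadjusted p under 0.05. In the fit with the animal as a replicate block no gene was called against either stage, with 602 higher and 118 lower against leptotene, and 661 and 150 against spermatogonia, at an unadjusted p under 0.05.

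Leptotene total library 2 bears on these contrasts. Its levels had a Spearman correlation of 0.848 to 0.880 with the pachytene total libraries over the genes tested, while the other leptotene total libraries had 0.356 to 0.478. None of the 3 calls against leptotene remained without leptotene total library 1, 3 or 4, leptotene nascent library 1, 3 or 4, pachytene total library 3, pachytene nascent library 1, or library 3 of spermatogonia in either assay. Without leptotene total library 2, 165 genes were higher and 12 lower in pachytene than in leptotene, and 23 and 6 against spermatogonia. Cdc42ep4 was 276 in that library, against 14.3 to 21.6 in the other leptotene total libraries and 52.5 to 77.1 in spermatogonia total libraries. Rnf7 was 220 there, 62.2 to 81.9 in the other leptotene total libraries, 87.2 to 94.9 in spermatogonia, and at most 1.06 in pachytene total libraries. Nxt1 was 400 there and 0.982 to 42.8 in the others. Of the 166 genes higher in pachytene nascent RNA, 24 (14.5%) were at least 4-fold higher in that library than in any pachytene total library. So were 49 (0.347%) of all tested genes. The 166 were called for pachytene total levels below the nascent ones, so this contrast was favoured by that choice and is not a test. The part of this library's makeup in these levels was not tested.

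**Figure D5:**
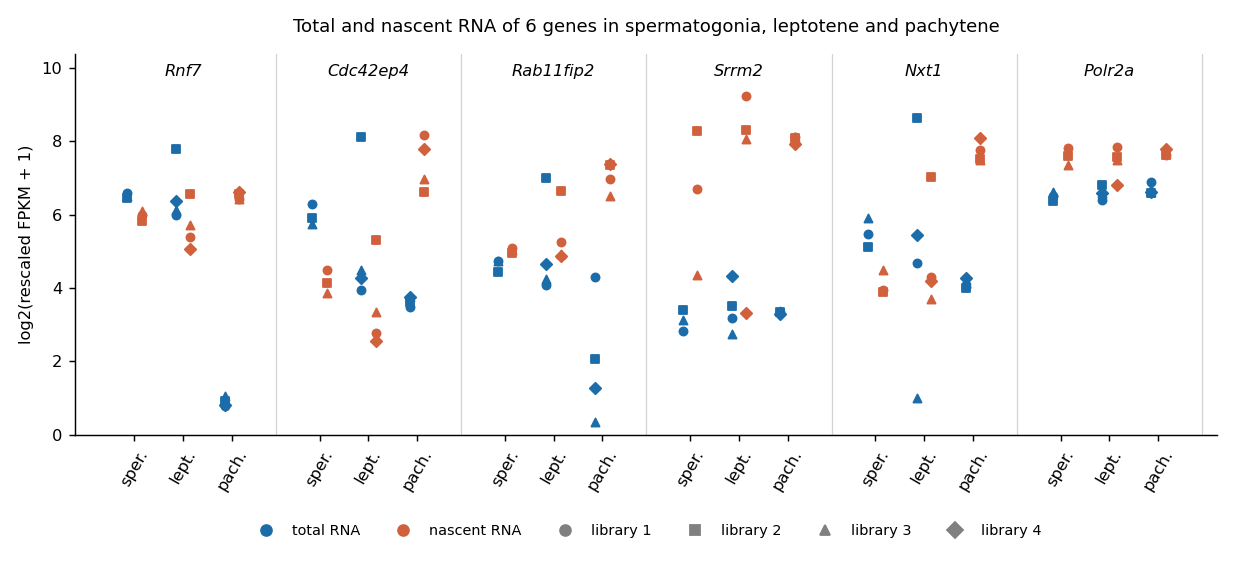
Level of 6 genes, as log2(rescaled FPKM + 1) on the y axis, in spermatogonia (sper.), leptotene (lept.) and pachytene (pach.) libraries of total RNA (blue) and nascent RNA (orange), with the library number as the symbol. Total RNA of Rnf7 is at most 1.06 in pachytene and 62.2 or more in the other stages drawn, and leptotene total library 2 is the highest total library for Cdc42ep4, Rab11fip2 and Nxt1.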

How the data were processed

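The FPKM tables of total and nascent RNA were used as deposited. The submitters' processing notes name STAR 2.5.2a, StringTie and the mm10 genome. Annotation and strand setting are not given in the sources used here, so overlapping genes and near-identical copies are uncertain. The deposited signal of the 5S-corrected nascent table was not used. Of 52323 rows, 92 spike-in rows were dropped and 47531 (90.8%) were matched by symbol to GENCODE M21. Each library was rescaled to a sum of 1e6, and genes with at least 1 in 2 or more of the 4 pachytene libraries of each assay were tested. Animal means of log2(value + 1) were compared in limma 3.58.1 (R 4.3.3; lmFit and eBayes with a trend; two-sided tests), with Benjamini-Hochberg adjustment over 14109 genes, after a check on simulated data. Summaries were made in Python 3.11.15 (scipy 1.17.1, pandas 2.3.3, numpy 2.4.6) and figures with matplotlib 3.10.9.

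The spread is that of 2 animals against 2. Depth could be read only from the step between low FPKM values, and no counting interval is given. Groups came from the labels. Named genes were Rnf7 and Cdc42ep4, the 12 largest called differences in each direction (level of at least 5 in the higher assay, no overlap, without predicted or merged genes, pseudogenes, microRNAs, snoRNAs named as such and 5S copies), up to 4 called members of each list, and 9 fixed genes. The members and lists were chosen with earlier results of these data known. Deviations of same-numbered total and nascent libraries from their group means correlated at 0.258, 0.213, 0.315 and 0.127, each above 0.1. Other pairs of numbers ranged from -0.200 to 0.132, and the highest, total library 4 with nascent library 2, lay above the pair of number 4. The library numbers were treated as pairs in the replicate block, although these correlations do not settle the pairing and the animals carry different labels. That fit takes single libraries as units, so libraries of the same animal count as separate replicates. Alternatives changed the scaling, pseudocount, level minimum, unit of replication, block, pooling of spread and the libraries or animals used. Leaving out library 3, the 12-library minimum, the centred block and the centred omission of each library were chosen after seeing the data.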

Additional observations from a re-analysis of the deposited data

Results flagged for a closer look

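A value was picked out when 1 of 4 libraries lay apart from the other 3 by Dixon's 95% criterion, which chance alone meets in about 1 in 20 groups. It did so in 19 of 222 groups, and 10 of the 19 were library 3 of either assay. In nascent library 3, Hspa2 was 169, Piwil1 68.1, Ndufa8 0 and Fmr1 52.3, against 1280 to 1430, 351 to 372, 11.4 to 16.0 and 1.43 to 2.66 in the others. In total library 3, Hormad1 was 14.5, Psmb1 127, Fmr1 16.6, Dmrt1 15.0 and Piwil1 292, and 18039 genes were at 1 or more, against 16839 to 17001 in the others.

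In total library 1, Epb41l4aos was 11, Hist1h4a 158 and Polr2a 118, and in total library 2 Rpl37 was 115 and Gtf2f1 68.2. Total library 4 had 2.49% of its FPKM in spike-ins, against 3.02% to 3.09%. In nascent libraries 1 to 4 this share was far higher and more uneven, at 64.9%, 69.1%, 76.5% and 13.1%. Nascent library 4, which also had the fewest implied reads, was not picked out for it by this criterion. In nascent library 1 Aard was 1.70, and in nascent library 4 Mael was 49.1 and Polr2a 222.

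The difference between total and nascent RNA itself differed between pachytene and leptotene for 3 genes in limma: Cdc42ep4 (-5.36, adjusted p = 0.0444), Rab11fip2 (-4.62, adjusted p = 0.0444) and Rundc3b (3.90, adjusted p = 0.0388). No cause of these values was tested.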

How the results depend on the processing

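The direction of the split, more genes higher in total than in nascent RNA, held in every setting but centring without nascent library 1, while the counts moved. Genes higher in total RNA numbered 3695, and 243 with small and ribosomal rows out of the sum (201 higher in nascent RNA), 661 after centring, 2445 with a minimum of 5, 2313 with the spread shared over 3 stages, and 2282, 786 and 1929 without animals IND2, IND6 and IND8. Genes higher in nascent RNA numbered 166, and 79 with the shared spread, 107 with the minimum over 12 libraries, and 59 and 94 without IND6 and IND8. With the library number as a replicate block, and single libraries as units, they were 6191 and 252, and 2054 and 1377 with centring as well. Pairing the animals as a replicate block gave 5190 and 279. Leaving out 1 library gave 1883 to 3771 higher in total RNA and 97 to 188 in nascent RNA, lowest without nascent library 1. With centring it gave 16 to 652 and 37 to 281, lowest without nascent library 1 (16 and 37) and then nascent library 4 (83 and 65), so the centred counts rest on few libraries. Centring without library 3 of both assays gave 306 and 112.

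Against leptotene, the replicate block gave 0 higher and 0 lower, centring 2 and 10, and a pseudocount of 0.1 gave 2 higher. Leaving out 1 library gave 0 to 165 and 0 to 12. Against spermatogonia, centring gave 3 lower, and leaving out 1 library gave 0 to 23 higher and 0 to 6 lower. Among named genes Prm1 changed sign, and leaving out 1 library gave -0.07 to 1.61 for it, with -0.06 and -0.07 among the centred values and -0.10 when centred without library 3 of both assays. The causes were not tested. Depth limits genes near 1, where 1 read is worth up to 0.460.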
